A study of Homo sapiens with 18 samples.

Results

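Gene expression was compared between MCF-10A cells that overexpressed SRSF9 (SRSF9-OE) and MCF-10A cells that overexpressed TRA2B (TRA2B-OE), without the empty-vector control. The comparison took every sample with either construct in its title, 6 of 18 samples in the series and 5 of its 14 sequencing libraries. MCF-10A is an immortalised, non-tumorigenic human mammary epithelial line. In both groups the cells carried a retroviral construct stably, with the coding sequence of SRSF9 or of TRA2B, and were harvested from Matrigel, a basement membrane gel, at day 8 of three-dimensional culture. The sources used here do not say whether a group was a pool of infected cells or 1 clone. SRSF9-OE held 3 libraries (replicates 1, 2 and 3). TRA2B-OE held 2, because its replicates 1 and 2 were 2 lanes of a single library and were summed (replicate 1-2, the summed library), beside replicate 3. The labels do not say that replicates came from separate cultures. The p-values therefore reflect only how libraries vary within groups, with the spread estimated over all 14 libraries, and that variation may be technical.

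SRSF9 is a small member of the SR protein family, which bind exonic sequences of pre-mRNA through RNA recognition motifs and recruit the splicing machinery through domains rich in arginine and serine. TRA2B is an SR-like protein with a single RNA recognition motif flanked by arginine-serine domains, and it binds purine-rich exonic enhancers. Both change the splicing of many transcripts, and both adjust their own transcript levels through alternative exons. Splicing itself was not analysed here, and the values below are total counts per gene.

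The libraries held 54083271, 48409510 and 42959069 counts in SRSF9-OE and 92111707 and 52250764 counts in TRA2B-OE. Levels are given as CPM (counts scaled to a common library size after TMM normalisation), always in the order SRSF9-OE replicates 1, 2 and 3, then TRA2B-OE replicate 1-2 and replicate 3. The SRSF9-OE libraries correlated with each other at 0.9783 to 0.9855 across genes, against 0.9542 between the TRA2B-OE libraries and at most 0.9702 across the groups. Replicate 1 of SRSF9-OE lay nearest to Control replicate 3 (0.9907), and the library labelled TRA2B-OE replicate 3 nearest to SRSF2-OE replicate 1 (0.9894). Mitochondrially encoded genes took 6.94% to 10.4% of counts in SRSF9-OE, 9.18% in the summed TRA2B-OE library and 14.3% in TRA2B-OE replicate 3. All SRSF9-OE libraries and TRA2B-OE replicate 3 carried numeric labels, whereas the summed TRA2B-OE library belonged to the samples labelled with a library ID. The label set is therefore a term of the model, and many results that turn on 1 TRA2B-OE library are also given without it. A result printed without such a value may still depend on 1 library. Markers of mammary basal cells (KRT5, KRT14, TP63 and 8 others) summed to 28822 to 34639 CPM in SRSF9-OE and 20206 to 30839 CPM in TRA2B-OE, and all 11 had counts in these libraries.

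SRSF9 stood at 359, 629 and 839 CPM in SRSF9-OE and at 117.4 and 92.6 CPM in TRA2B-OE. Every SRSF9-OE library lay above every other library of the series, since the 9 libraries of the other groups ranged from 91.6 to 110 CPM. Group means were 609 ± 241 CPM (SD, n = 3) and 105 ± 17.5 CPM (SD, n = 2), a 5.8-fold ratio. The log2 fold change, SRSF9-OE minus TRA2B-OE and adjusted for label set (called the log2 difference below), was 2.55 ± 0.34 (SE). Its adjusted p was 0.116 by edgeR's quasi-likelihood test over 21326 genes and 1.24e-09 by DESeq2. The log2 difference was 2.30 without TRA2B-OE replicate 3 and 2.70 without the summed library. Without SRSF9-OE replicate 1 it was 2.82, and edgeR then called SRSF9 and 1 other gene, GATC (SRSF9 adjusted p = 0.00686).

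TRA2B differed less between the groups than SRSF9 did. It stood at 140, 128 and 129 CPM in SRSF9-OE and at 201 and 147 CPM in TRA2B-OE, so that both TRA2B-OE libraries were higher than all 3 SRSF9-OE libraries. The other 9 libraries held 105 to 168 CPM, a range that the summed TRA2B-OE library exceeded and that included TRA2B-OE replicate 3. The log2 difference was -0.31 ± 0.15 (SE), with adjusted p = 0.837 by edgeR and 0.756 by DESeq2. It was -0.54 without TRA2B-OE replicate 3 and -0.16 without the summed library.

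**Figure D1:**
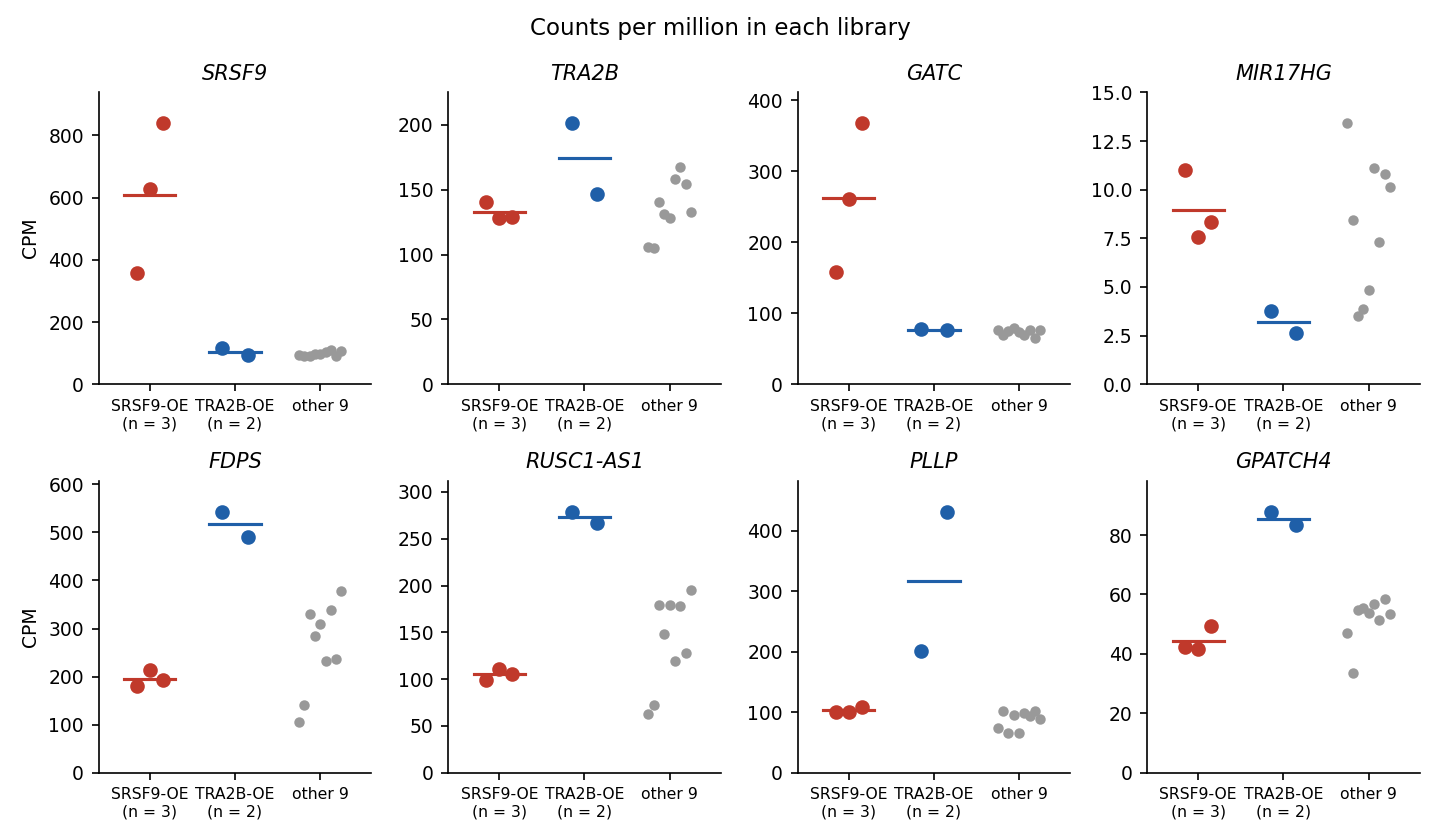
Levels of 8 genes in each library (y axis, CPM, linear from 0), with 1 point per library for SRSF9-OE, TRA2B-OE and the 9 libraries of other groups, and horizontal bars at the group means. SRSF9 lies at 359 to 839 CPM in SRSF9-OE and at 91.6 to 117.4 CPM in all other libraries, while TRA2B lies at 147 and 201 CPM in TRA2B-OE and at 128 to 140 CPM in SRSF9-OE.

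Across all genes, edgeR called 0.0% of the 21326 genes tested (0 genes) at an adjusted p under 0.05, and 1257 genes (5.89%) had an unadjusted p under 0.05, of which 597 were higher in SRSF9-OE (2.8%). DESeq2, run on the same table with the same terms, called 33 genes higher in SRSF9-OE (0.155%) and 19 lower (0.0891%), and limma-voom called 1 and 2. All 52 genes called by DESeq2 (0.244% of those tested) had an edgeR unadjusted p under 0.05. In 51 of the 52 the libraries of the groups did not overlap, which held for 26.9% of all genes tested. The calls were made on these same libraries, so neither count is separate support for them. Of the 33 higher genes, 18 had a mean below 3 CPM in SRSF9-OE, and 2 of the 19 lower genes had one below 3 CPM in TRA2B-OE. Below, "rose" and "fell" refer to DESeq2 calls in SRSF9-OE relative to TRA2B-OE, and no such gene passed edgeR's adjusted threshold. On simulated counts of this design DESeq2 called unchanged genes more often than its threshold allows for and more often than edgeR did, so some of these calls may be false and a DESeq2 call alone is weak evidence of a difference. Without TRA2B-OE replicate 3, DESeq2 called 38 genes higher and 57 lower, and 10 of the 52 were among them. Without the summed library it called 163 and 75, and 32 of the 52 were among them. Without SRSF9-OE replicate 1, 2 or 3 it called 15 and 8, 14 and 6, or 18 and 19 genes.

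**Figure D2:**
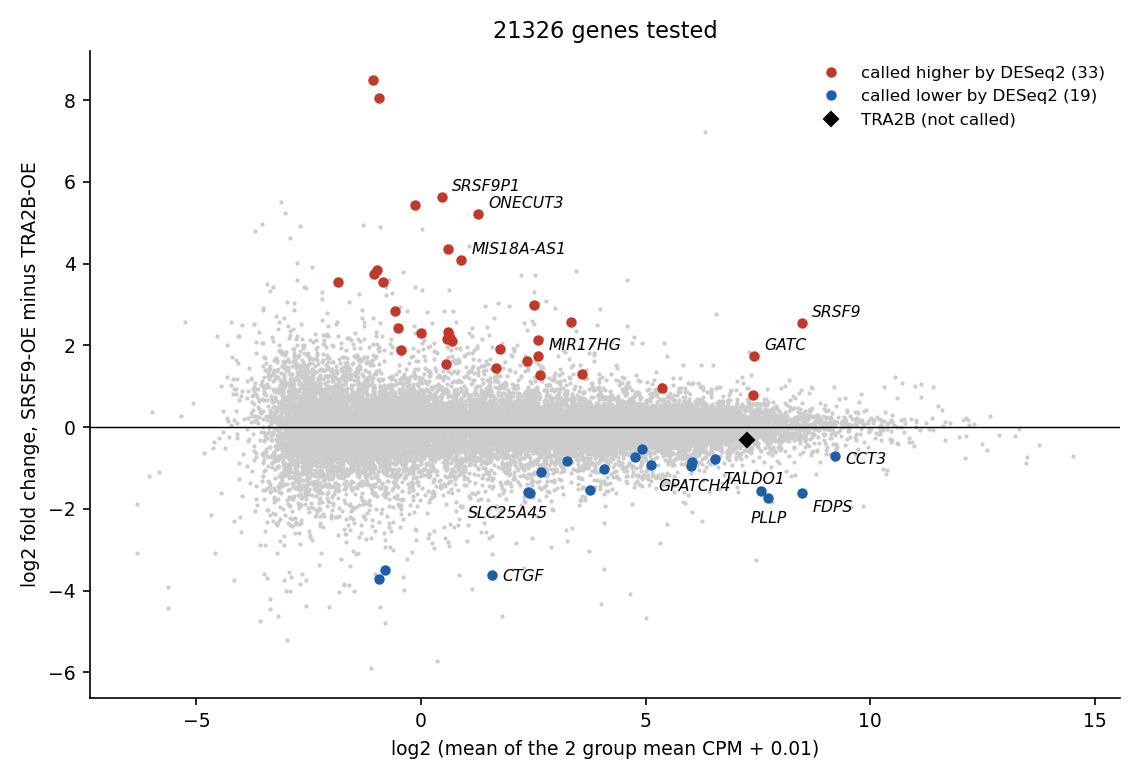
Log2 difference of each of the 21326 genes tested (y axis, SRSF9-OE minus TRA2B-OE) against its level (x axis, log2 of the mean CPM of the groups plus 0.01). Red and blue points are the 33 and 19 genes called higher and lower by DESeq2, of which SRSF9 and FDPS lie at high levels and many red points at low levels; the black diamond is TRA2B, which was not called.

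GATC and SRSF9P1, which both rose, share position or sequence with SRSF9. GATC, which encodes a subunit of the mitochondrial glutamyl-tRNA(Gln) amidotransferase, overlaps SRSF9 on the opposite strand in GENCODE 29. It stood at 158, 261 and 368 CPM in SRSF9-OE and at 78.1 and 75.9 CPM in TRA2B-OE, against 65.1 to 79.7 CPM in the other libraries. GATC thus followed the order of SRSF9 across the 3 SRSF9-OE libraries, with a log2 difference of 1.74 ± 0.31 (DESeq2 adjusted p = 0.000328). The processed pseudogene SRSF9P1 stood at 1.46, 3.84 and 2.76 CPM against 0.0406 and 0.0394 CPM, a log2 difference of 5.63 ± 1.11 (DESeq2 adjusted p = 0.000104). SRSF9P1 was chosen after its values were seen. The sources used here do not say whether counting used strand or how reads shared with a pseudogene were treated, so the counts of GATC and SRSF9P1 cannot be told apart from those of SRSF9 transcripts.

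A pair of antisense genes showed the same order of libraries. MIS18A-AS1, antisense to the centromere licensing gene MIS18A, stood at 2.14, 3.32 and 4.77 CPM in SRSF9-OE and at 0.426 and 0.177 CPM in TRA2B-OE, while the other libraries held 0.108 to 0.448 CPM. Its log2 difference was 4.09 ± 0.59 (edgeR adjusted p = 0.202, DESeq2 adjusted p = 5.2e-08). MIS18A itself stood at 11.7, 15.2 and 14.6 CPM against 9.27 and 8.19 CPM and was not called (log2 difference 0.70 ± 0.31). DNAH10OS, annotated as an antisense gene, held 1.04, 2.91 and 4.75 CPM against 0.132 and 0.0985 CPM (log2 difference 4.35 ± 0.94, DESeq2 adjusted p = 0.000698). Both antisense genes were lowest in SRSF9-OE replicate 1 and highest in replicate 3, as SRSF9 was, and 3 libraries are too few for a correlation. DNAH10OS was named after its values were seen.

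MIR17HG, the host transcript of the miR-17-92 cluster, rose in SRSF9-OE relative to TRA2B-OE. It stood at 11, 7.56 and 8.32 CPM in SRSF9-OE and at 3.78 and 2.64 CPM in TRA2B-OE, means of 8.97 ± 1.82 (SD, n = 3) and 3.21 ± 0.81 CPM (SD, n = 2) and a 2.79-fold ratio. The other 9 libraries ranged from 3.5 to 13.4 CPM, so the SRSF9-OE libraries lay within that range and TRA2B-OE replicate 3 below it. The log2 difference was 1.74 ± 0.27 (edgeR adjusted p = 0.255, DESeq2 adjusted p = 1.25e-06), 1.72 without TRA2B-OE replicate 3 and 1.75 without the summed library. The cluster's products are known as regulators of proliferation and survival. Their mature sequences, which mRNA libraries do not measure, are shown to identify what the transcript carries. They are from RefSeq (GRCh38.p14, plus strand), 5′ to 3′, with the seed (bases 2 to 8) in capitals:
hsa-miR-17-5p (chr13:91350618-91350640): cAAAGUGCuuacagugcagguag
hsa-miR-20a-5p (chr13:91351072-91351094): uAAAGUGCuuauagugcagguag
hsa-miR-18a-5p (chr13:91350756-91350778): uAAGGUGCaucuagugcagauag
hsa-miR-19a-3p (chr13:91350939-91350961): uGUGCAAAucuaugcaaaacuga
hsa-miR-19b-3p (chr13:91351245-91351267): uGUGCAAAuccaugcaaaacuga
hsa-miR-92a-3p (chr13:91351361-91351382): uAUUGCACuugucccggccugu
miR-17-5p and miR-20a-5p share the seed AAAGUGC, and miR-19a-3p and miR-19b-3p share GUGCAAA, while miR-18a-5p and miR-92a-3p carry seeds of their own.

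The rule for named genes gave 12 genes that rose, of which GATC, MIS18A-AS1 and MIR17HG are described above. ONECUT3, a homeodomain transcription factor, stood at 3.11, 5.29 and 5.66 CPM in SRSF9-OE and at 0.122 and 0.138 CPM in TRA2B-OE (log2 difference 5.2 ± 1.57, DESeq2 adjusted p = 0.0125). The other libraries spanned 0.0535 to 9.05 CPM for ONECUT3, so neither group lay outside them. NLGN4X, a neuroligin adhesion protein, held 12.4, 7.80 and 7.58 CPM against 3.89 and 0.512 CPM (log2 difference 2.98 ± 1.0, DESeq2 adjusted p = 0.0441). SEZ6L2, a cell surface protein, held 12.6, 15.8 and 15.6 CPM against 9.01 and 1.97 CPM (log2 difference 2.57 ± 0.68, DESeq2 adjusted p = 0.016). For NLGN4X and SEZ6L2, TRA2B-OE replicate 3 was the lower of the pair, and the log2 differences without it were 1.77 and 2.11.

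TUB, the founding member of the tubby family of ciliary trafficking proteins, held 10.1, 9.09 and 6.23 CPM in SRSF9-OE and 6.17 and 1.0 CPM in TRA2B-OE (DESeq2 adjusted p = 0.047). The nearest libraries of TUB, 6.23 and 6.17 CPM, almost met, and its log2 difference of 2.12 ± 0.62 was 1.11 without TRA2B-OE replicate 3. GSDMB, a gasdermin, stood at 5.38, 4.16 and 5.27 CPM against 2.70 and 0.906 CPM (log2 difference 1.92 ± 0.48, and 1.29 without TRA2B-OE replicate 3). RNF165, a ubiquitin ligase, was lower in both TRA2B-OE libraries (2.46 and 2.5 CPM) than in any other library of the series. It held 9.96, 7.5 and 6.04 CPM in SRSF9-OE and 3.46 to 14.7 CPM in the other groups, with a log2 difference of 1.62 ± 0.33 (DESeq2 adjusted p = 0.00354). PER3, a component of the circadian clock, held 4.21, 4.62 and 4.03 CPM against 2.45 and 1.71 CPM, a log2 difference of 1.46 ± 0.34 (DESeq2 adjusted p = 0.0226). The KRAB-type zinc finger genes ZNF354C and ZNF558 had log2 differences of 1.29 ± 0.28 and 1.28 ± 0.27 (DESeq2 adjusted p = 0.0125 and 0.006). ZNF354C held 16.3, 15.2 and 13.1 CPM against 12.6 and 5.32 CPM, so its nearest libraries almost met. ZNF558 held 8.72, 7.62 and 8.22 CPM against 5.66 and 3.01 CPM. Over the 19 alternative fits, the lowest log2 differences of ZNF354C and ZNF558 were 0.73 and 0.91.

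The genes MIA3, POLI and DUOX2, which also rose, were named after their values were seen. MIA3, which helps load collagen into vesicles leaving the endoplasmic reticulum, held 170, 232 and 230 CPM in SRSF9-OE and 132 and 120 CPM in TRA2B-OE. All 3 SRSF9-OE libraries exceeded the other groups, which held 104 to 149 CPM, and the log2 difference was 0.77 ± 0.17 (DESeq2 adjusted p = 0.0318). POLI, a translesion DNA polymerase, held 49.8, 56.1 and 49.1 CPM against 34.9 and 27.0 CPM (log2 difference 0.96 ± 0.18, DESeq2 adjusted p = 0.0091). DUOX2, a hydrogen peroxide-producing oxidase of epithelia, held 2.84, 2.25 and 2.76 CPM against 0.406 and 0.749 CPM (log2 difference 2.11 ± 0.41, DESeq2 adjusted p = 0.00153). Without TRA2B-OE replicate 3 the log2 differences of MIA3, POLI and DUOX2 were 0.73, 1.0 and 2.69.

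Among genes that fell in SRSF9-OE relative to TRA2B-OE, FDPS and its neighbour had the smallest p. FDPS encodes farnesyl diphosphate synthase, the mevalonate pathway enzyme whose product feeds sterol synthesis and protein prenylation. It stood at 181, 213 and 193 CPM in SRSF9-OE and at 543 and 490 CPM in TRA2B-OE. Both TRA2B-OE libraries lay above all others, since the other groups held 106 to 378 CPM. Means were 196 ± 16 CPM (SD, n = 3) and 517 ± 37.0 CPM (SD, n = 2), so FDPS was 2.64-fold higher in TRA2B-OE. The log2 difference was -1.61 ± 0.20 (edgeR adjusted p = 0.0918, DESeq2 adjusted p = 2.49e-09), -2.0 without TRA2B-OE replicate 3 and -1.34 without the summed library.

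RUSC1-AS1 overlaps FDPS on the opposite strand. It stood at 99.5, 111 and 105 CPM in SRSF9-OE and at 279 and 267 CPM in TRA2B-OE, against 62.5 to 195 CPM in the other groups, a log2 difference of -1.55 ± 0.18 (edgeR adjusted p = 0.0918, DESeq2 adjusted p = 1.24e-09). Both genes are shifted by nearly the same amount, and without knowing whether counting used strand their reads cannot be told apart. RUSC1, the protein-coding gene that RUSC1-AS1 also overlaps, stood at 39.9, 36 and 44.6 CPM against 39.7 and 66.9 CPM and was not called (log2 difference -0.51 ± 0.18). RUSC1 was added after its values were seen.

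PLLP, which encodes the membrane protein plasmolipin, was higher in both TRA2B-OE libraries than in any other library of the series. It stood at 100.4, 101 and 110 CPM in SRSF9-OE and at 202 and 432 CPM in TRA2B-OE, while the other groups held 65.7 to 103 CPM. The log2 difference was -1.73 ± 0.27 (edgeR adjusted p = 0.255, DESeq2 adjusted p = 0.000199), and -1.02 without TRA2B-OE replicate 3. CTGF, a secreted matricellular protein and a target of YAP, had the largest fold among the named genes that fell, but the summed TRA2B-OE library carried most of it. It held 0.342, 0.219 and 0.168 CPM in SRSF9-OE, 10.9 CPM in the summed library and 0.532 CPM in TRA2B-OE replicate 3. Its log2 difference was -3.61 ± 1.04 (DESeq2 adjusted p = 0.0225), and -1.12 without the summed library.

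Most other named genes that fell had close values in the TRA2B-OE libraries. SLC25A45, a mitochondrial carrier family member, stood at 2.63, 1.87 and 2.61 CPM against 8.30 and 8.41 CPM (log2 difference -1.62 ± 0.34, DESeq2 adjusted p = 0.0125). GLYCTK, glycerate kinase, held 3.34, 2.17 and 2.56 CPM against 7.27 and 8.14 CPM (log2 difference -1.58 ± 0.36, DESeq2 adjusted p = 0.0226). MXRA8, a cell adhesion protein, held 7.73, 6.03 and 8.56 CPM against 19.0 and 20.1 CPM (log2 difference -1.53 ± 0.35, DESeq2 adjusted p = 0.023). In these 3 genes both TRA2B-OE libraries were more than 2-fold above every SRSF9-OE library, although GLYCTK and MXRA8 reached 12.7 and 25.1 CPM in other groups. PGP, phosphoglycolate phosphatase, held 9.78, 10.8 and 14.4 CPM against 20.4 and 23.1 CPM (log2 difference -1.03 ± 0.20, DESeq2 adjusted p = 0.00353). AUNIP, which interacts with Aurora kinase A and ninein, had a log2 difference of -1.10 ± 0.25, FRMD8 one of -0.96 ± 0.19 and the caveolar coat gene CAVIN3 one of -0.92 ± 0.19. GPATCH4, a G-patch protein of the nucleolus, held 42.4, 41.6 and 49.3 CPM against 87.8 and 83.3 CPM, and its log2 difference was -0.84 ± 0.14 (DESeq2 adjusted p = 0.000339).

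TALDO1, CCT3, TBX3, TIMM8B and GPX2 also fell, of which all but TALDO1 were named after their values were seen. TALDO1, transaldolase of the pentose phosphate pathway, held 72.5, 67.3 and 75.0 CPM against 107 and 121 CPM (log2 difference -0.79 ± 0.14, DESeq2 adjusted p = 0.00104). CCT3, a subunit of the cytosolic chaperonin that folds actin and tubulin, held 436, 489 and 480 CPM against 722 and 706 CPM, above the 290 to 576 CPM of the other groups. Its log2 difference was -0.71 ± 0.17 (DESeq2 adjusted p = 0.023). TBX3, a T-box repressor with a role in mammary gland development, held 6.62, 6.15 and 5.56 CPM against 15.3 and 10.8 CPM, also above the other groups (5.14 to 9.62 CPM). The log2 difference of TBX3 was -0.82 ± 0.21 (DESeq2 adjusted p = 0.0373), that of the mitochondrial import gene TIMM8B was -0.54 ± 0.13, and that of the glutathione peroxidase gene GPX2 was -3.49 ± 0.71 at levels under 2 CPM. Without TRA2B-OE replicate 3, the log2 differences of TALDO1, CCT3, TBX3 and GPATCH4 were -0.83, -0.88, -0.82 and -0.72.

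Gene lists were next described by the count and the median of their tested members, beside the median of all genes tested, -0.005. Among all genes, 50.6% had a log2 difference below 0. In 13.6% of genes all SRSF9-OE libraries lay above both TRA2B-OE libraries, in 13.3% all lay below, and 3.09% had an edgeR unadjusted p under 0.05 with a lower level in SRSF9-OE. No list member passed edgeR's adjusted threshold, and the members named from here on are given as values.

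Mitotic genes were lower in SRSF9-OE in 30 of 30 members, with a median log2 difference of -1.16. In 10 of them no SRSF9-OE library reached either TRA2B-OE library, and 4 had an edgeR unadjusted p under 0.05. Their mean level (log2 CPM over the 30 genes) was 5.61, 5.16 and 3.83 in SRSF9-OE and 5.44 and 6.29 in TRA2B-OE, so SRSF9-OE replicate 1 exceeded the summed TRA2B-OE library and the groups overlapped. The other 9 libraries spanned 3.80 to 6.09. PLK1, the polo-like kinase of mitotic entry and spindle assembly, held 43.4, 28.3 and 14.2 CPM against 43.9 and 97.6 CPM (log2 difference -1.58 ± 0.59, edgeR unadjusted p = 0.0231). AURKA, the centrosomal Aurora kinase, held 34.1, 28.7 and 12 CPM against 42.5 and 53.2 CPM (log2 difference -1.20 ± 0.49, edgeR unadjusted p = 0.0339). Both kinases were lowest in SRSF9-OE replicate 3. The list's median was -0.88 without TRA2B-OE replicate 3, -1.25 without the summed library, and between -1.64 and -0.76 over all 19 alternatives. In bulk RNA, fewer dividing cells and less RNA of these genes per cell cannot be told apart.

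DNA replication genes were lower in SRSF9-OE in 29 of 30 members, with a median log2 difference of -0.74. In 21 of the 30 all SRSF9-OE libraries lay below both TRA2B-OE libraries, and 5 had an edgeR unadjusted p under 0.05. The mean level was 4.44, 4.23 and 3.53 log2 CPM in SRSF9-OE and 4.79 and 4.87 log2 CPM in TRA2B-OE, which did not overlap. The libraries of the other groups spanned 3.06 to 4.99 log2 CPM, a range that included every library of both groups. CDC45, part of the replicative helicase, held 8.81, 8.14 and 4.41 CPM against 15.7 and 18.6 CPM (log2 difference -1.47 ± 0.54, edgeR unadjusted p = 0.022). CHAF1A, a histone chaperone at the fork, held 17.8, 17.4 and 11.9 CPM against 25.5 and 29.3 CPM (log2 difference -0.86 ± 0.33). Both were therefore lower in every SRSF9-OE library. The median was -0.67 without either TRA2B-OE library. Replication-dependent histone genes (10 tested) had a median of -0.17 and G1 cyclins and CDK inhibitors (16 tested) one of -0.32. In the latter list CDKN2C, an inhibitor of CDK4 and CDK6, held 6.65, 4.86 and 3.74 CPM against 8.24 and 27.0 CPM.

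Promoter sequences are shown for PLK1, as an example of the mitotic list, and for FDPS, as the leading gene that fell. The PLK1 sequence covers the 250 bases before its RefSeq start (GRCh38.p14, plus strand), with matches to CCAAT and TTTGAA, searched on both strands, in capitals:
PLK1 (chr16:23678639-23678888): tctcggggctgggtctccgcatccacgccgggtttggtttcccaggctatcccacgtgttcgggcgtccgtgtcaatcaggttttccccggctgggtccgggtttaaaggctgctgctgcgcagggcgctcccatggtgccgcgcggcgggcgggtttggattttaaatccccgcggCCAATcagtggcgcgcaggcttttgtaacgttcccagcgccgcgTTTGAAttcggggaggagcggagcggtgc
CCAAT is the letters of the NF-Y box and TTTGAA those of the core of the cell cycle homology region, and neither motif overlaps the other. In windows from 250 bases before to 50 after the start, 24 of 28 promoters of the mitotic list (85.7%) held CCAAT. The share was 34.6% among all 35116 promoters and 62.9% among the windows of the DNA replication list. TTTGAA occurred in 18 of 28 (64.3%), against 15.2% of all promoters, and in 2.86% of the 35 windows of the DNA replication list. Both motifs occurred in 57.1% of the mitotic windows and in 5.9% of all windows. Among promoters of tested protein-coding genes, 34.2% held CCAAT, 10.9% held TTTGAA and 4.21% held both. These are counts of letters in a list chosen for its function, and a match is not a binding site.

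The FDPS sequence holds 3 matches to CCAAT, of which those that read ATTGG lie on the other strand:
FDPS (chr1:155308616-155308865): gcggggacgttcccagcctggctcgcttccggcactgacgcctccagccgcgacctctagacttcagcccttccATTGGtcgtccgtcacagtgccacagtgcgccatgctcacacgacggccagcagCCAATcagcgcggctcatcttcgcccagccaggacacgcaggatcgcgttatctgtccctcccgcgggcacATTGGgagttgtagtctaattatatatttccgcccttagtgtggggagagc
CCAAT was held by 76.2% of the 21 windows of the sterol synthesis list. TCACNCCAC, the letters of a classical sterol regulatory element, occurred in 4.76% of those windows and in 1.13% of all promoters, and not in the FDPS window. Absence of these exact letters does not show that a promoter lacks such an element.

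**Figure D3:**
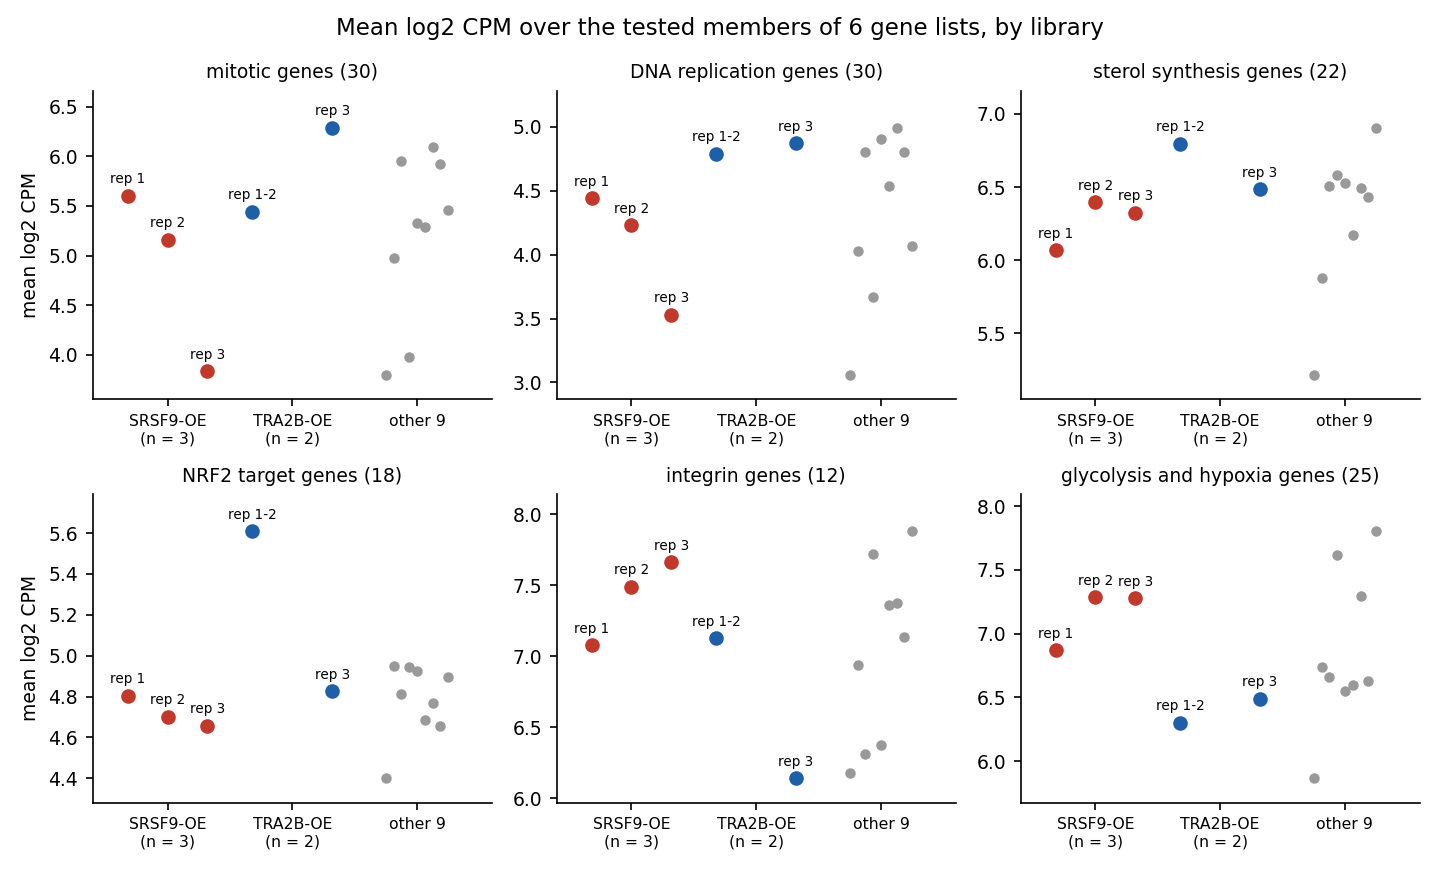
Mean log2 CPM over the tested members of 6 gene lists (y axis of each panel, number of members in its title), 1 point per library, for SRSF9-OE, TRA2B-OE and the 9 other libraries. DNA replication genes lie lower in all SRSF9-OE libraries (3.53 to 4.44) than in both TRA2B-OE libraries (4.79 and 4.87), and the NRF2 list stands highest in the summed TRA2B-OE library at 5.61.

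Sterol synthesis genes, which turn acetyl-CoA into cholesterol, were lower in SRSF9-OE in 20 of 22 tested members, with a median log2 difference of -0.59. FDPS was the 1 member called by DESeq2, 11 members had an edgeR unadjusted p under 0.05 and lower levels, and in 9 the groups did not overlap. The mean level was 6.07, 6.40 and 6.33 log2 CPM in SRSF9-OE and 6.80 and 6.48 log2 CPM in TRA2B-OE. Libraries of the other groups spanned 5.22 to 6.91 log2 CPM, a range that included every library of both groups. The members below, except FDPS, were named after their values were seen, from those with the unadjusted p under 0.05. HMGCS1, an early enzyme of the mevalonate pathway, held 70.9, 91.2 and 73.2 CPM against 234 and 92.9 CPM, so the summed TRA2B-OE library carried most of its log2 difference of -0.94 ± 0.35. The mevalonate pathway kinases MVK and PMVK differed by -0.46 ± 0.15 and -0.42 ± 0.16. MVK held 36.9, 42.4 and 47.8 CPM against 43.8 and 56.3 CPM, so the groups overlapped. PMVK lies near FDPS on chromosome 1, in a stretch of lower genes described below. MVD, the decarboxylase after these kinases, held 34.5, 41.2 and 52.5 CPM against 107 and 66.2 CPM (log2 difference -1.11 ± 0.31). The list's median was -0.99 without TRA2B-OE replicate 3 and -0.23 without the summed library. Fatty acid synthesis genes (18 tested) had a median of -0.15, with 14 below 0.

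NRF2 target genes, which hold the thioredoxin, glutathione and NADPH-producing enzymes, were lower in 15 of 18 tested members, with a median log2 difference of -0.44. One of them (TALDO1) was called by DESeq2, 7 had an edgeR unadjusted p under 0.05 with lower levels, and in 6 the groups did not overlap. This list depended on the summed TRA2B-OE library, which stood at 5.61 log2 CPM against 4.66 to 4.80 in SRSF9-OE and 4.83 in TRA2B-OE replicate 3. Without the summed library the median was -0.06, and without replicate 3 it was -1.19. TXNRD1, thioredoxin reductase, held 40.7, 35.9 and 29.4 CPM in SRSF9-OE, 140.3 CPM in the summed library and 47.8 CPM in replicate 3. GCLM, of glutathione synthesis, held 11.3, 10.7 and 8.29 CPM against 32.3 and 13.9 CPM. PGD, of the pentose phosphate pathway, held 114, 109 and 110.3 CPM against 184 and 141 CPM (log2 difference -0.66 ± 0.26). TXNRD1, GCLM and PGD were named after their values were seen.

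**Figure D4:**
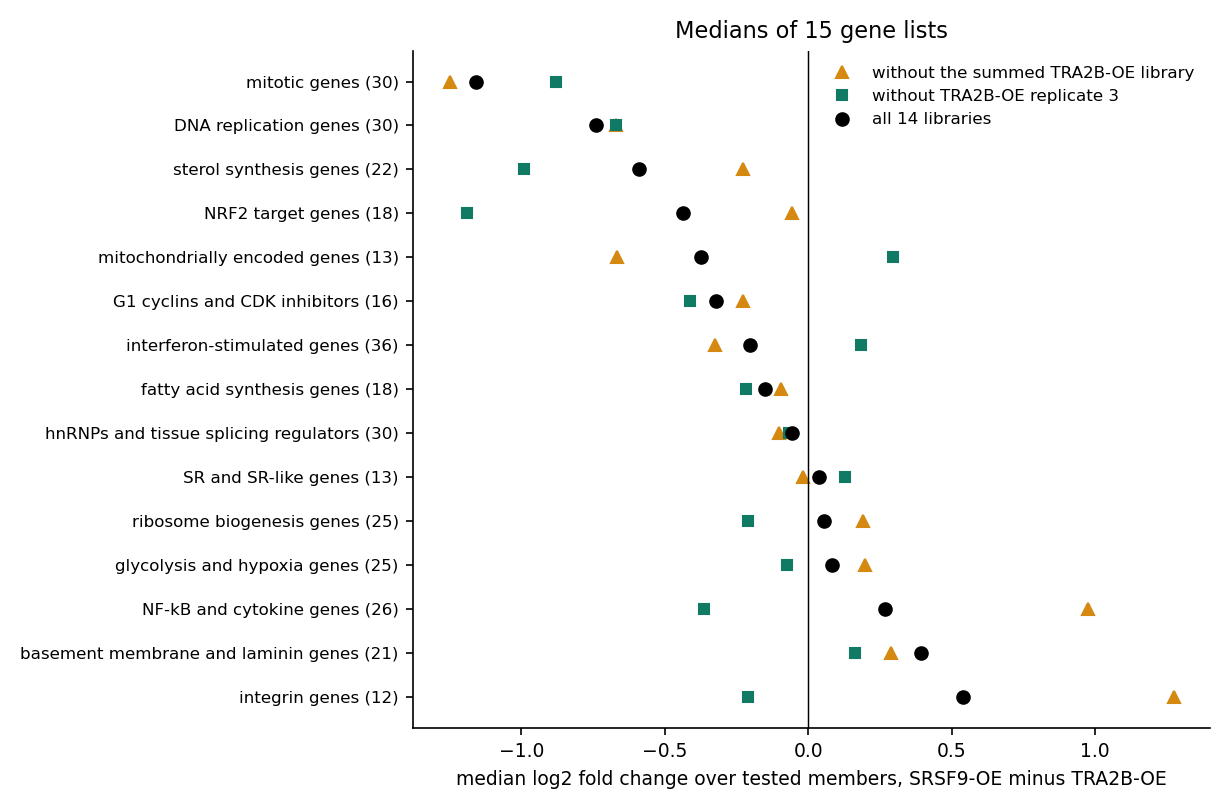
Median log2 difference (x axis, SRSF9-OE minus TRA2B-OE) over the tested members of 15 gene lists (rows, number of members in brackets), with all 14 libraries (circles), without the summed TRA2B-OE library (triangles) and without TRA2B-OE replicate 3 (squares). Mitotic and DNA replication lists stay between -1.25 and -0.67 in all 3 fits, whereas the integrin list moves from 1.27 to -0.21 and the NF-kB list from 0.98 to -0.36.

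Basement membrane and laminin genes were higher in SRSF9-OE in 18 of 21 members, with a median log2 difference of 0.39, against 49.4% of all genes above 0. In 5 of them the groups did not overlap, and 1 had an edgeR unadjusted p under 0.05 with a higher level. HSPG2, the core protein of perlecan, held 339, 359 and 518 CPM against 169 and 296 CPM (log2 difference 0.71 ± 0.32, edgeR unadjusted p = 0.0496). COL4A5, a type IV collagen chain, held 339, 341 and 379 CPM against 229 and 299 CPM (log2 difference 0.44 ± 0.20, edgeR unadjusted p = 0.0523). The median was 0.17 without TRA2B-OE replicate 3 and 0.29 without the summed library. COL17A1, a hemidesmosome collagen, held 3707, 3559 and 3675 CPM against 1460 and 2929 CPM, with a log2 difference of 0.51 ± 0.29.

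Integrin genes were higher in 11 of 12 tested members, with a median log2 difference of 0.54 and no overlap in 5. ITGB4, the hemidesmosome integrin, held 2425, 3928 and 5236 CPM in SRSF9-OE and 1564 and 1574 CPM in TRA2B-OE. The groups did not overlap for ITGB4, yet the spread within SRSF9-OE was wide and the log2 difference of 0.97 ± 0.63 had an edgeR unadjusted p of 0.154. ITGB4 was named after its values were seen. ITGA1, a collagen receptor chain, held 8.88, 10.2 and 8.10 CPM against 7.51 and 3.74 CPM (log2 difference 0.77 ± 0.36). ITGAV, a chain of the vitronectin receptors, held 199.9, 209 and 226 CPM against 191 and 104 CPM (log2 difference 0.58 ± 0.30). TRA2B-OE replicate 3 was the lowest library for ITGA1 and ITGAV among these 5. Without it the list's median was -0.21 and ITGAV stood at -0.01, and without the summed library the median was 1.27.

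Matrix proteases and their inhibitors (23 tested) had a median log2 difference of 0.26, but it was -0.70 without TRA2B-OE replicate 3 and 0.76 without the summed library. The members with the smallest p were lower in SRSF9-OE. TIMP1, the secreted metalloproteinase inhibitor, held 164, 167 and 235 CPM against 465 and 367 CPM (log2 difference -1.18 ± 0.34, edgeR unadjusted p = 0.00599). PLAT, tissue plasminogen activator, held 72.2, 70.2 and 61.2 CPM against 98.3 and 114 CPM (log2 difference -0.89 ± 0.29). The mesenchymal transition list (16 tested) had a median of 0.02, which was -0.52 without TRA2B-OE replicate 3 and 0.55 without the summed library. In it CDH2, N-cadherin, held 1.60, 1.55 and 1.70 CPM against 11.9 and 4.39 CPM. CDH2 differed by -1.72 ± 0.48 (edgeR unadjusted p = 0.00494), and neither TIMP1, PLAT nor CDH2 was called by DESeq2.

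Glycolysis and hypoxia genes gave different pictures by level and by fit. In 10 of 25 tested members all SRSF9-OE libraries were above both TRA2B-OE libraries (13.6% of all genes were), in 0 all were below, and the mean level was 6.87, 7.28 and 7.28 log2 CPM against 6.30 and 6.49. After adjustment for label set the median was 0.08, and without that term it was 0.36. GPI and PGAM1, enzymes of glycolysis and the list's members with an edgeR unadjusted p under 0.05 and lower levels, differed by -0.52 ± 0.18 and -0.41 ± 0.16. The median was -0.07 without TRA2B-OE replicate 3.

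The other splicing regulators had medians near 0. SR and SR-like genes (13 tested) had a median log2 difference of 0.04 with 8 above 0 (0.13 without TRA2B-OE replicate 3 and -0.02 without the summed library), and SRSF9 was the member called by DESeq2. SRSF12, named after its values were seen, stood at 1.29, 1.33 and 1.65 CPM against 1.27 and 0.729 CPM (log2 difference 0.97 ± 0.36, edgeR unadjusted p = 0.0208). Heterogeneous nuclear ribonucleoproteins and tissue splicing regulators (30 tested) had a median of -0.06 with 20 below 0. HNRNPM was the member with an edgeR unadjusted p under 0.05, at 153, 123 and 114 CPM against 232 and 156 CPM (log2 difference -0.48 ± 0.21). Kinases and carriers of SR proteins (12 tested) had a median of 0.06. Nonsense-mediated decay genes (17 tested) had a median of -0.07, or 0.05 without TRA2B-OE replicate 3, and SMG5, a decay factor that binds phosphorylated UPF1, held 162, 136 and 178 CPM against 164 and 267 CPM.

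Interferon-stimulated genes lay on both sides of 0. Of 36 tested members, 24 were below 0 and the median was -0.20, with no overlap downward in 14 and upward in 4. IFI44L held 4.35, 2.39 and 3.74 CPM in SRSF9-OE and 41.8 and 19.2 CPM in TRA2B-OE, an 8.74-fold ratio of means. Its log2 difference after adjustment for label set was -1.92 ± 0.66, and -0.54 without TRA2B-OE replicate 3. OAS1, a sensor of double-stranded RNA, was higher in SRSF9-OE, with 37.1, 51.1 and 35.3 CPM against 17.1 and 17.0 CPM (log2 difference 1.13 ± 0.40, edgeR unadjusted p = 0.0169). The list's median was 0.19 without TRA2B-OE replicate 3 and -0.32 without the summed library. HLA-C, of the MHC class I list (10 tested, median -0.27), held 26.0, 25.3 and 32.5 CPM against 38.9 and 42.6 CPM (log2 difference -0.62 ± 0.16, edgeR unadjusted p = 0.00293).

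Several lists took opposite signs against the 2 TRA2B-OE libraries. NF-kB and cytokine genes (26 tested) had a median log2 difference of 0.27, which was 0.98 without the summed library and -0.36 without replicate 3. TNFAIP3, the feedback inhibitor A20 of this pathway, held 95.1, 89.8 and 160.3 CPM in SRSF9-OE, 108 CPM in the summed library and 21.9 CPM in replicate 3. BIRC3, an inhibitor of apoptosis, held 241, 198 and 238 CPM against 294 and 88.1 CPM. Cornification and kallikrein genes (29 tested) had a median of -0.28, which was 3.42 without the summed library and -1.25 without replicate 3. ID2 and ID3, targets of BMP signalling within the TGF-beta list, were high in TRA2B-OE replicate 3 and not in the other 4 of these libraries. ID3 held 87.1, 48.2 and 76.7 CPM in SRSF9-OE, 54.3 CPM in the summed library and 339 CPM in replicate 3, and ID2 held 51.4 CPM in replicate 3 against 3.06 to 7.29 CPM in the other 4. The same genes stood at 343 and 45.5 CPM (ID3 and ID2) in SRSF2-OE replicate 1 and at 355 and 46.9 CPM in SRSF2-OE replicate 3. The log2 differences of ID2 and ID3 were -2.34 ± 0.82 and -1.60 ± 0.57, and 0.89 and 0.27 without replicate 3. Over all 52 lists, 28 medians differed in sign between the fits that kept either TRA2B-OE library.

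Mitochondrially encoded genes were lower in SRSF9-OE in 13 of 13 members, with a median log2 difference of -0.37. The groups overlapped in all but 1, and MT-CO2 held 9234, 6369 and 9666 CPM against 8666 and 19445 CPM. Only TRA2B-OE replicate 3 stood high among these 5 libraries, and without it the median was 0.30 and MT-CO2 stood at -0.16. The share of mitochondrial counts therefore moved with that library, and its part in the results above was not tested.

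Endothelial markers summed to 12.5 to 15.6 CPM in SRSF9-OE and 5.82 to 6.11 CPM in TRA2B-OE over 8 matched genes, of which all 8 had counts. Blood cell markers summed to 4.44 to 6.62 and 5.63 to 8.33 CPM, with CD3D and HBA2 listed at 0 in all 5 libraries. Neuronal markers summed to 3.45 to 10.2 and 4.51 to 5.24 CPM, with NEFM at 0, and adipocyte markers to 3.96 to 5.41 and 3.92 to 11.8 CPM, with ADIPOQ, LEP and LPL at 0. Fibroblast markers had larger sums than these lists, of 187 to 239 CPM in SRSF9-OE and 180 to 427 CPM in TRA2B-OE, with COL1A2 listed at 0. These sums include genes that epithelial cells also express, and their part in the results above was not tested. Some genes that every cell uses, such as PGK1, U2AF1, DKC1 and TKT, were also listed at 0 in all 5 libraries, so a listed 0 does not show that a gene was silent.

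FDPS has neighbours that were also lower. The protein-coding genes with a mean of at least 3 CPM were put in gene order and divided into 258 blocks of 40 genes, and the block with the lowest median lay on chromosome 1, from KRTCAP2 to PEAR1. In that block 36 of 40 genes were lower in SRSF9-OE, the median log2 difference was -0.52, and 19 genes had an edgeR unadjusted p under 0.05 with lower levels against 0 with higher levels. The second lowest block, next to it and with PMVK among its genes, had a median of -0.29, and 5% of blocks lay under -0.15. FDPS, GPATCH4 and CCT3, described above, all lie within the lowest block, as do SMG5, RUSC1 and LAMTOR2. LAMTOR2, a subunit of the lysosomal Ragulator complex, held 45.9, 47.5 and 45.7 CPM against 49.8 and 87.1 CPM (log2 difference -0.71 ± 0.16). RAB25, an epithelial Rab GTPase in the same block, was higher in SRSF9-OE, with 8.34, 6.43 and 6.69 CPM against 1.11 and 0.138 CPM.

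The block's genes stood highest in 1 library. Relative to all libraries, its genes had a median deviation of 0.62 log2 units in TRA2B-OE replicate 3 and of 0.07 in the summed library. The SRSF9-OE libraries stood at -0.08, -0.16 and 0.07, and the 9 others at -0.23 to 0.16. Without TRA2B-OE replicate 3 the block's median log2 difference was -0.16, and without the summed library it was -0.68. FDPS differed from the block in that its log2 difference was larger without replicate 3 (-2.0), while GPATCH4 (-0.72) and CCT3 (-0.88) also kept theirs and SMG5 (-0.16) and RUSC1 (-0.06) were nearer to 0. The block, LAMTOR2 and RAB25 were singled out after their values were seen, gene order is that of GENCODE 29, and no cause was tested.

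**Figure D5:**
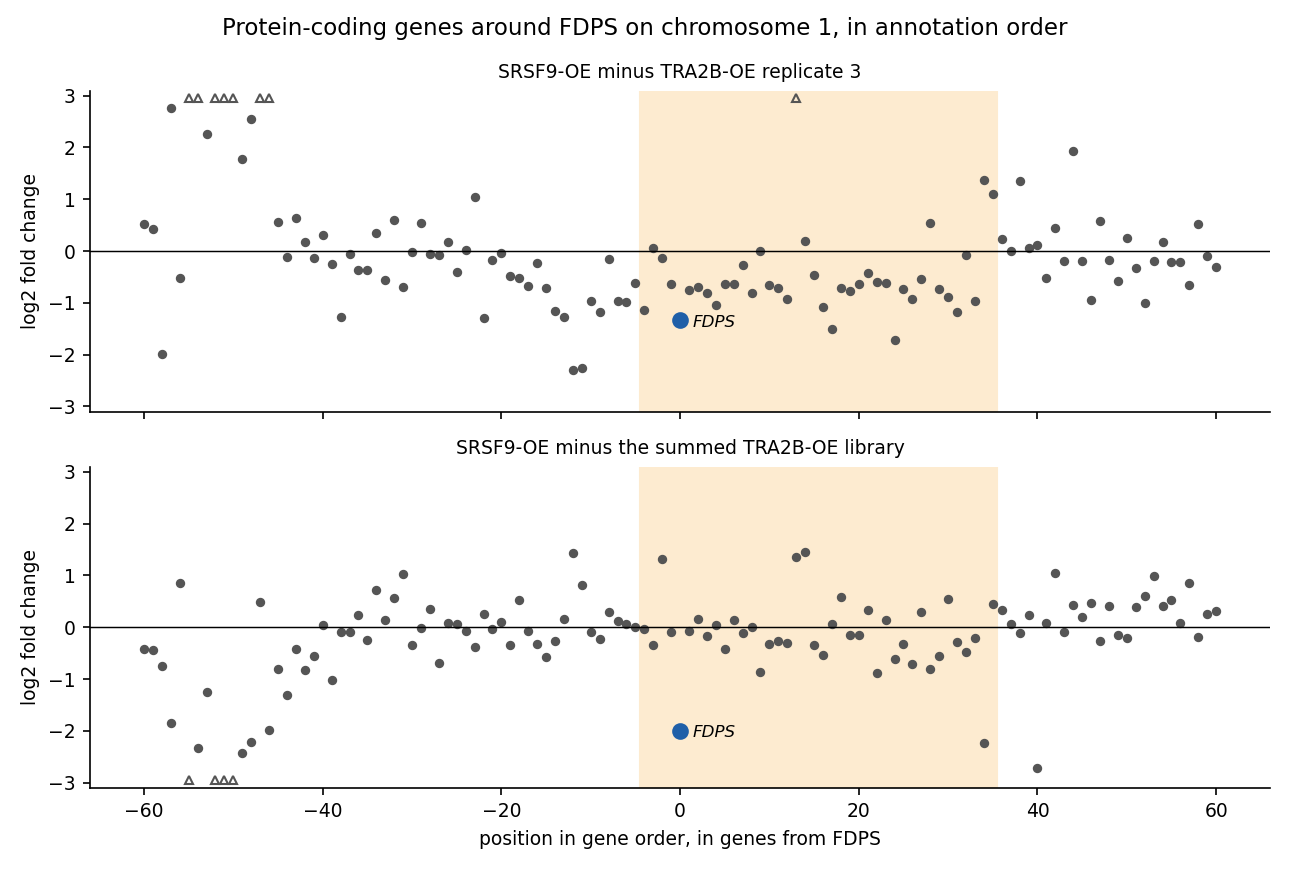
Log2 difference (y axis) of FDPS and the 60 protein-coding genes on either side of it by gene order (x axis, number of genes from FDPS), without the summed TRA2B-OE library (top) and without TRA2B-OE replicate 3 (bottom), with the 40-gene block from KRTCAP2 to PEAR1 shaded and open triangles for genes beyond the axis. The block's median is -0.68 in the top panel and -0.16 in the bottom panel, while FDPS lies at -1.34 and -2.0.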

How the data were processed

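MCF-10A RNA was sequenced as 101-base paired reads from stranded mRNA libraries, according to the labels' protocols. The authors deposited raw counts per gene for 18 samples. The submitters' processing notes list Trimmomatic 0.36, STAR 2.5.1b, featureCounts, Subread and the build GRCh37. The sources used here do not say whether counting used strand, or took reads or pairs, so antisense and overlapping genes can share reads. GENCODE 29 (another build) named 55951 of 60252 gene IDs by ID, and the 4301 unnamed IDs took 0.152% to 0.192% of counts. The 2 lanes of TRA2B-OE replicate 1-2 were summed because they share a library ID and barcode. Their mean chi-square per gene was 3.82, against 65.1 to 116 within SRSF9-OE and 276 for replicate 1 against replicate 3. The lanes thus differed far less than libraries did, but by more than sampling noise alone would give.

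The 14 libraries were scaled by TMM, and filterByExpr with a minimum count of 10 kept 21326 genes. The edgeR 4.0.16 quasi-likelihood model in R 4.3.3 had terms for group and label set, 7 residual degrees of freedom and a biological coefficient of variation of 0.318. The threshold was 0.05 on the Benjamini-Hochberg adjusted p. DESeq2 1.42.0 and limma 3.58.1 (voom) were alternatives, and 841 genes got no adjusted p from DESeq2. Because edgeR called 0 genes, named genes came from DESeq2 calls, as the rule provides: in each direction up to 12 with the largest log2 difference, a mean of at least 3 CPM in the higher group, no overlap between groups and a protein-coding or long non-coding type, then up to 4 called members of each list or, with none called, 2 by smallest p. Members, lists (52, of 963 genes, 2 not matched) and rule were chosen with earlier results of these data known. The fit was tested on simulated counts, on which DESeq2 recovered more of the changed genes than edgeR but also made false calls above the share its threshold allows for. Totals of 42959069 to 92111707 counts per library limit precision, and 20 of the 52 DESeq2 calls had a mean under 3 CPM in the higher group. List levels are means of log2 CPM with a prior count of 2. Differences between the shared replicate numbers, 1 and 3, correlated at -0.112 across genes between SRSF9-OE and TRA2B-OE. In TRA2B-OE that difference also crosses the label sets, so the value cannot decide whether replicate numbers pair the libraries. Sequences are RefSeq's, GRCh38.p14, and gene coordinates are not given because the builds differ. Some members of the gene lists are not reported here.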

Additional observations from a re-analysis of the deposited data

How the results depend on the processing

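The 14 libraries give 7 residual degrees of freedom, and 3 against 2 libraries of uneven depth limit every call. No gene was called in 13 of the 19 alternatives, and 74 of 77 genes named kept their sign in all 19. The exceptions, ITGAV, ID2 and ID3, ranged from -0.013 to 1.02, -3.21 to 0.890 and -2.27 to 0.268 over the fits without each library in turn, with the other sign without TRA2B-OE replicate 3. They stood at -0.013, 0.891 and 0.268 without that library and SRSF2-OE replicate 1. Of 52 list medians, 14 kept their sign throughout and 23 took the other sign without TRA2B-OE replicate 3. The cause was not tested.

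The counts of genes higher and lower were 33 and 19 by DESeq2, 1 and 2 by limma-voom (SRSF9 higher, FDPS and RUSC1-AS1 lower), 2 and 2 with no filter on low counts, 209 and 110 with only the 5 libraries and both terms, and 19 and 10 with the 18 samples as separate replicates, where lanes count separately. Leaving out each library in turn gave 0 to 2 higher genes in edgeR (SRSF9 and GATC without SRSF9-OE replicate 1) and 0 lower. SRSF9 passed the threshold in DESeq2 (2.54), limma-voom (2.48) and with no filter (2.57, edgeR adjusted p = 0.0261). It also passed with 18 samples (2.49, edgeR adjusted p = 0.000756) and without SRSF9-OE replicate 1 (2.82, edgeR adjusted p = 0.00686). Its log2 difference was 2.71 with the 5 libraries and both terms. For that fit only the effect size of SRSF9 is given, because the label set term takes up the summed TRA2B-OE library. When each library was left out, the log2 difference of SRSF9 ranged from 2.24 to 2.82. TRA2B passed under none, at -0.54 to -0.15.

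Alternatives to the DESeq2 calls were chosen after seeing the data. Leaving out each library in turn gave 14 to 163 genes higher and 6 to 75 lower. The 5 libraries alone gave 225 and 132, and no label set term 43 and 36. With the replicate number as a block, DESeq2 called 9 and 4, of which 11 were among the 52, and edgeR 0 and 0. Of the 52 genes, 10 were called again without TRA2B-OE replicate 3, 32 without the summed TRA2B-OE library, and 20, 17 and 25 without SRSF9-OE replicates 1, 2 and 3.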

Other observations

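Further gene groups were described by the same counts and medians. Integrated stress response genes were higher in SRSF9-OE in 16 of 22 members (median log2 difference 0.42). There was no overlap upward in 4 and downward in 0, against 13.6% and 13.3% of all genes. The mean level was 5.24, 5.89 and 6.57 log2 CPM in SRSF9-OE and 5.33 and 5.18 log2 CPM in TRA2B-OE, so the groups overlapped. The median was 0.02 without TRA2B-OE replicate 3 and -0.02 without SRSF9-OE replicate 3. BCL2 family genes were higher in 14 of 17 members (median 0.13), but the median was -0.11 without TRA2B-OE replicate 3. Ribosome biogenesis genes (25 tested, median 0.06) and unfolded protein response genes (22 tested, median 0.05) took medians of -0.21 and -0.31 without that library. The median of 22 p53 target genes was 0.00, with 11 on either side. WNT pathway genes (31 tested, median 0.08) and lysosome and autophagy genes (23 tested, median 0.06) had 7 members each with no overlap upward, against 13.6% of all genes.

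The blocks of 40 genes with the highest medians both lay on chromosome 20, from SMOX to DTD1 (0.19, 31 of 40 higher in SRSF9-OE) and from TSHZ2 to TCFL5 (0.18, 28 of 40 higher). Their median deviations were lowest in TRA2B-OE replicate 3 (-0.43 and -0.37) and SRSF2-OE replicate 1 (-0.35 and -0.34). Without TRA2B-OE replicate 3 the medians were -0.07 and -0.06. These blocks were chosen after their values were seen.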
